A study of Mus musculus with 2 samples.

Results

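Genes for the synthesis, breakdown and sensing of eicosanoids were examined in a map of PPARγ peaks from mouse TH2 cells. The list held 37 symbols, chosen by name as enzymes, or their helper proteins, and receptors of the prostaglandin and leukotriene pathways, and 36 of them matched a protein-coding gene among 21851 in the annotation, 23 enzymes and 13 receptors. The receptor symbol Oxer1 matched none. Naive CD4+ T cells of C57BL/6J mice were activated under TH2 conditions in vitro, transduced on days 1 and 2 with a retrovirus that expresses TY1-tagged Pparg, and taken on day 4. The 1 ChIP library was made with a TY1 antibody and the 1 input library with none, both from transduced cells, so the peaks are those of the introduced receptor. The series text speaks of repeat experiments, but 1 replicate was used, so no value here has a replicate error. No untransduced or empty-vector library was analysed here, and the files hold no expression values from which the TH2 label or the activity of any gene could be checked.

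Eicosanoids are oxidised derivatives of arachidonic acid, which phospholipase A2 enzymes release from membranes. Cyclooxygenases and the synthases after them make prostaglandins and thromboxane, while the lipoxygenase encoded by Alox5 starts the route to the leukotrienes, and both kinds of mediator act through G protein-coupled receptors on the cell surface. Some of these lipids, among them dehydrated products of prostaglandin D2 and hydroxylated fatty acids from lipoxygenases, can bind PPARγ itself. In type 2 immunity the cysteinyl leukotrienes and prostaglandin D2 are known as signals to TH2 cells, eosinophils and innate lymphoid cells.

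PPARγ peaks were assigned to 5 of the receptor genes and to 2 of the enzyme genes. Each of the 2537 deposited peaks, 173 bp wide, was given to the gene with the nearest protein-coding transcription start site (TSS), if the peak centre lay within 100 kb of it. By this rule 7 of the 36 genes (19.4%) held a peak, against 7.68% of all protein-coding genes. The 2 enzyme genes were Lta4h and Hpgds (8.70% of 23, exact 95% binomial interval 1.07 to 28.0), and the 5 receptor genes were Cysltr1, Cysltr2, Ltb4r1, Ptger2 and Tbxa2r (38.5% of 13, interval 13.9 to 68.4). The enzyme share was close to that of all genes and the receptor share was above it, but the intervals of enzymes and receptors overlap, and no test was made of a list that was drawn up with earlier results of these peaks known. Cysltr2 and Ptger2 had 2 peaks each, so that 9 peaks in all were assigned. Of all protein-coding genes with a peak, 19.8% had 2 or more.

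**Figure D1:**
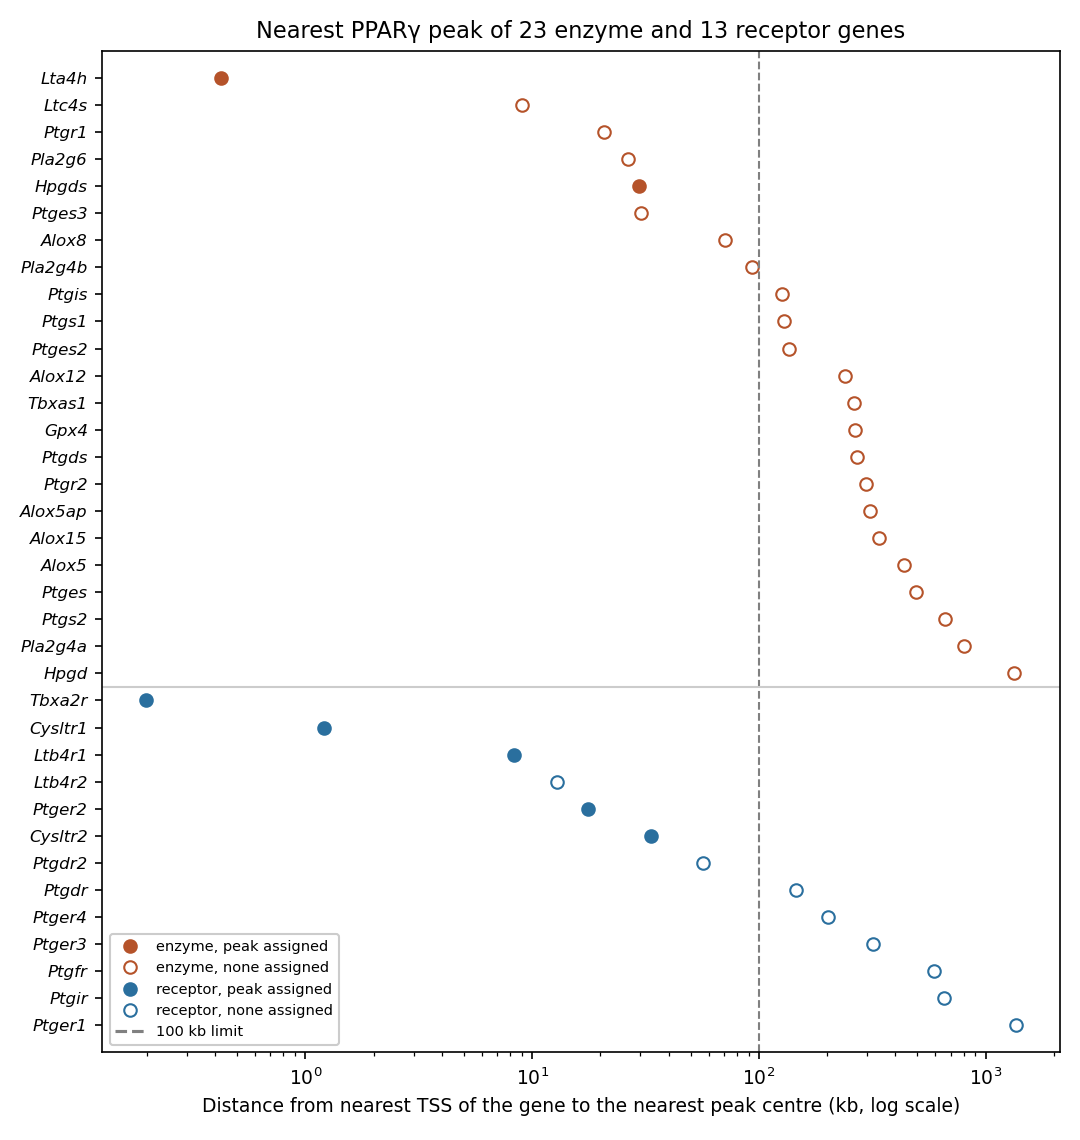
Distance from each gene's nearest TSS to the nearest PPARγ peak centre (kb, log scale) for 23 enzyme genes (upper block) and 13 receptor genes (lower block). Filled points are genes with an assigned peak, open points genes whose nearest peak is closer to another gene or over 100 kb away (dashed line). The nearest peaks range over 0.425 to 1334 kb for enzymes and 0.198 to 1364 kb for receptors.

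The sequences of 4 of these peaks show the range of what lay under them, from a DR1-type repeat to a tRNA gene. DR1 is the pair of AGGTCA half-sites with a 1 bp spacer that PPARγ binds with its partner RXR, and it was searched as AGGTCANAGGTCA on both strands with up to 2 mismatches in the 12 fixed bases. In the lines that follow, read from the RefSeq copy of mm10 (GRCm38) and all on its plus strand, capitals mark a DR1 match or an exact AGGTCA half-site in the peaks of receptor genes and the annotated tRNA in the peak of Lta4h. The Tbxa2r stretch leaves out the part of its peak that overlaps an annotated exon.
Cysltr1 at chrX:106602383-106602555: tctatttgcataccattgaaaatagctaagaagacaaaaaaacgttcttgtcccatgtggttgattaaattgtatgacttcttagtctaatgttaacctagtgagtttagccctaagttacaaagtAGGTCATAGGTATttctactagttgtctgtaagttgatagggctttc
Cysltr2 at chr14:73015500-73015672: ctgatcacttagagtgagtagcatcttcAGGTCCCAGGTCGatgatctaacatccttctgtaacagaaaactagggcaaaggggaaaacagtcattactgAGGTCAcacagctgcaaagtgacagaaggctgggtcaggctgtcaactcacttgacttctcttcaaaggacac
Tbxa2r at chr10:81328494-81328619: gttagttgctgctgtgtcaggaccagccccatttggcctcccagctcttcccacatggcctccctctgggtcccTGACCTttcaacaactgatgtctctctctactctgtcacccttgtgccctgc
Lta4h at chr10:93452900-93453072: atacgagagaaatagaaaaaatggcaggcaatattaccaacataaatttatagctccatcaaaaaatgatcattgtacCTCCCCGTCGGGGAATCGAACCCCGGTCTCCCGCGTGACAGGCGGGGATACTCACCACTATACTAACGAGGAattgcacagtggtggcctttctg

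Among the leukotriene receptors, 3 of 4 genes held a peak, against 7.68% of all protein-coding genes. Both receptors for the cysteinyl leukotrienes were among them. Cysltr1 encodes the high-affinity receptor for leukotriene D4, the target of the asthma drug montelukast. Its peak was centred 1.21 kb downstream of the TSS in an intron, within sequence that the gene Gm5127 also spans on the other strand. Of the 9 peaks this was the only one inside the gene to which it was assigned. It held an exact AGGTCA half-site at the start of a DR1 match with 2 mismatches, AGGTCATAGGTAT (chrX:106602509-106602521), 46 bp from the peak centre.

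Cysltr2, which encodes the second receptor for cysteinyl leukotrienes, had peaks in the intergenic sequence beyond its 3′ end. The nearer lay 33.5 kb from the TSS and 10.02 kb past the end of the gene, with the DR1 match AGGTCCCAGGTCG (2 mismatches) 52 bp to the left of the centre and a separate exact half-site 16 bp to the right of it. The farther, at chr14:72986206-72986378, lay 62.8 kb from the TSS and held no DR1 match. It held an exact AP-1 site, TGACTCA on the minus strand, the sequence bound by FOS and JUN family factors. A further peak, 63.9 kb upstream of Cysltr2, was assigned to Rcbtb2, whose TSS was 29.5 kb away.

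Ltb4r1 and Ltb4r2 encode the high- and low-affinity receptors for leukotriene B4, a chemoattractant, and lie next to each other on chromosome 14. A peak 8.31 kb downstream of the Ltb4r1 TSS (chr14:55774188-55774360) was assigned to that gene, although it lay in an intron of the neighbouring adenylate cyclase gene Adcy4, whose TSS was 9.77 kb away. It held no DR1 or AP-1 match and no exact half-site. A second peak in the same gene, 3.11 kb away and 11.4 kb from Ltb4r1 (chr14:55777298-55777470), was assigned to Adcy4. This one held GGGTCACAGGTCA, a DR1 match with 1 mismatch, 6 bp from its centre. Ltb4r2, with start sites of other genes close on both sides, was nearest to only 3.75 kb of sequence and had no assigned peak, though the first of these peaks lay 12.8 kb from its TSS.

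Prostanoid receptors held a peak at 2 of 9 genes, against 7.68% of all protein-coding genes. Tbxa2r encodes the thromboxane receptor, and its peak was centred 198 bp upstream of the TSS, in the promoter. The match closest to DR1 in this peak had 3 mismatches and was therefore not counted. The second of its repeats was an exact AGGTCA on the minus strand (printed as its reverse complement TGACCT). RefSeq lists a further upstream start site of Tbxa2r, and its first exon overlaps the left end of the peak.

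Ptger2 encodes EP2, a cAMP-raising receptor for prostaglandin E2. Its nearer peak lay 17.6 kb downstream of the TSS, 1.98 kb past the end of the gene and in an intron of the antisense gene Gm17173 (chr14:45005711-45005883), with 1 exact half-site and no DR1 match. Its farther peak was intergenic at 63.2 kb (chr14:45051344-45051516) and held neither a DR1 nor an AP-1 match. Another peak, also nearest to Ptger2, lay 107 kb from it and so just outside the limit. Ptgdr, which encodes the DP1 receptor for prostaglandin D2 and lies upstream of Ptger2 in the opposite orientation, had no peak within 100 kb, and its nearest was the 17.6 kb peak of Ptger2, 146 kb away.

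Ptgdr2, which encodes the prostaglandin D2 receptor CRTH2, a surface marker of TH2 cells in humans, had no assigned peak. It was nearest to 14.3 kb of sequence, and the closest peaks lay upstream, 56.4 kb away in an intron of Tmem109 and 87.5 kb away in an intron of Slc15a3. The second of these held AGGCCAGAGGTCA, a DR1 match with 1 mismatch. Ptger4, which encodes EP4, the other cAMP-raising receptor for prostaglandin E2, was the nearest coding gene to a pair of intergenic peaks 202 and 203 kb upstream, beyond the limit, the first with an AP-1 site. The other receptors, for prostacyclin (Ptgir, 655 kb), prostaglandin F2α (Ptgfr, 594 kb) and prostaglandin E2 (Ptger3, 317 kb, and Ptger1, 1364 kb), were farther from any peak.

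**Figure D2:**
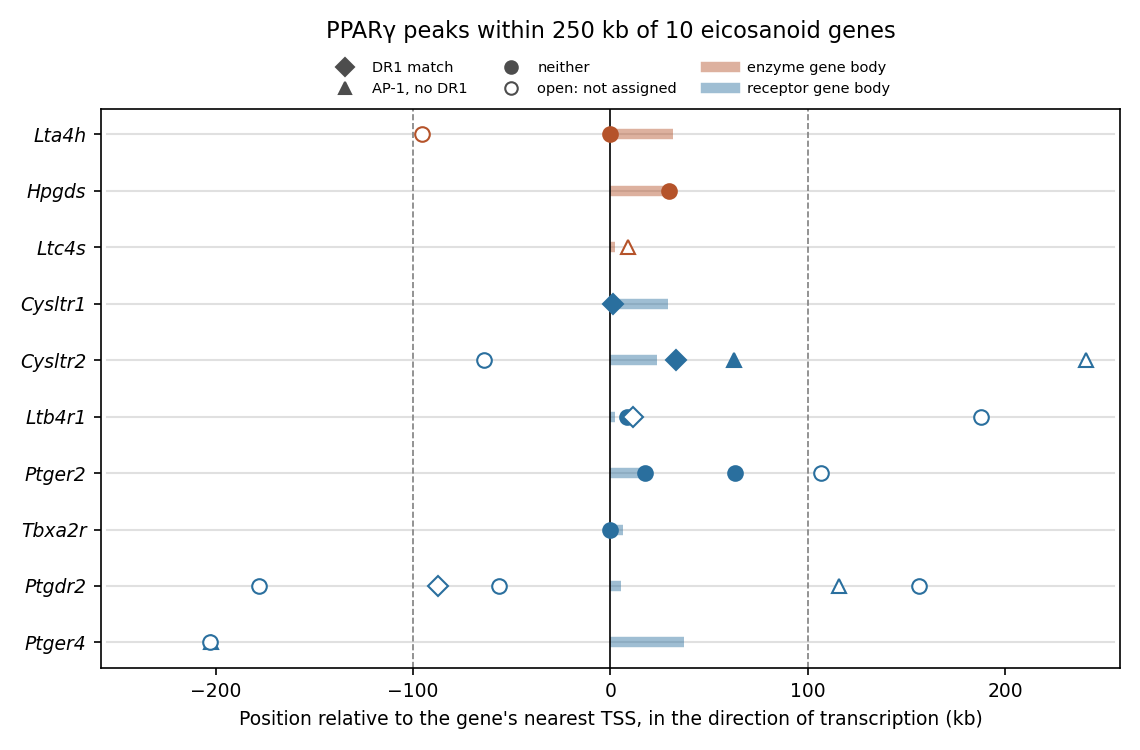
Peaks within 250 kb of the start site of 10 genes, with distance from the nearest TSS in kb along the direction of transcription (dashed lines at 100 kb on each side) and gene bodies as thick bars. Diamonds held a DR1 match, triangles an AP-1 but no DR1 match, circles neither, and open symbols were not assigned to the gene. The peaks of Lta4h and Tbxa2r lie 0.425 and 0.198 kb upstream of the TSS, and the other 7 assigned peaks lie downstream of it. Of all assigned peaks, 44.5% lie upstream of the TSS.

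Of the enzymes, the lipoxygenases and leukotriene synthesis genes together held a peak at 1 of 7 genes and the prostanoid synthases at 1 of 7. None was assigned to the 3 phospholipases, the 2 cyclooxygenases, the 3 breakdown enzymes or Gpx4. Over all protein-coding genes the share was 7.68%, and in groups this small an absence cannot be set apart from it. Lta4h encodes the hydrolase that makes leukotriene B4, the ligand of the Ltb4r1 product. Its peak was centred 425 bp upstream of the TSS, in the promoter, and held no DR1, half-site or AP-1 match. The closest approach to DR1 in it had 5 mismatches, which 99.6% of all peaks reach. RefSeq annotates the aspartic acid tRNA gene n-TDgtc8 on the minus strand at chr10:93452978-93453049. All 72 bases of it lay inside the peak, and the peak centre fell within it. Of the 2537 peaks, 5 (0.197%) overlapped 1 of 403 annotated tRNA genes, and 2 of those 5 lay within 1 kb of a coding TSS. The part of the tRNA gene in the Lta4h peak was not tested.

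Hpgds encodes the haematopoietic prostaglandin D synthase, which TH2 cells are known to express in humans. Its peak (chr6:65115101-65115273) lay 29.7 kb from the TSS, 2.11 kb past the end of the gene and inside the last exon of the convergent gene Smarcad1, in its 3′ UTR. No DR1, half-site or AP-1 match was found in it, and the next peak was 402 kb away. With noncoding transcripts of coding genes also counted as start sites, this peak went to a Smarcad1 transcript 7.73 kb away and the Ltb4r1 peak to an Adcy4 transcript 0.386 kb away.

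A further 6 enzyme genes and 2 receptor genes had no assigned peak but a peak within 100 kb that lay nearer to another gene. Any peak within 100 kb of a TSS, whichever gene it was nearest to, was thus found at 8 of 23 enzymes and 7 of 13 receptors, against 23.5% of all protein-coding genes. A peak can count for several genes in this way, and the neighbours Ltb4r1 and Ltb4r2 were counted through the same peaks. For Ltc4s, which encodes leukotriene C4 synthase, the first committed enzyme of the cysteinyl leukotrienes, the peak lay 8.99 kb downstream in an intron of Mgat4b and held an AP-1 site. It would be assigned to Ltc4s if only the 5′ end of each gene counted as its start. The peak nearest to Ptgr1, a reductase that inactivates leukotriene B4 and prostaglandins, was 20.7 kb away, nearest to Gm20503. The peak near the phospholipase gene Pla2g6, 26.5 kb away in an intron of Maff, held both an AP-1 site and the DR1 match AGGTCAGGGGTCT (2 mismatches). Those near Ptges3 (30.3 kb, nearest to Baz2a), the lipoxygenase gene Alox8 (70.6 kb, nearest to Gucy2e) and Pla2g4b (93.5 kb, nearest to Ehd4) held neither.

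The remaining 21 genes had no peak within 100 kb. Ptgs2, the inducible cyclooxygenase, was 660 kb from the nearest peak although 169 kb of sequence would have been assigned to it. Pla2g4a, the cytosolic phospholipase that supplies arachidonic acid, lay 799 kb away, and Hpgd, which encodes the dehydrogenase that inactivates prostaglandins, lay 1334 kb away. The leukotriene-initiating gene Alox5 was 437 kb and the lipoxygenase gene Alox15, whose products can activate PPARγ, 337 kb from a peak. The constitutive cyclooxygenase gene Ptgs1 (129 kb), the prostacyclin synthase gene Ptgis (127 kb) and the prostaglandin E synthase gene Ptges2 (135 kb) were just beyond the limit. The median distance to the nearest peak was 240 kb over the enzymes and 56.4 kb over the receptors, against 318 kb over all protein-coding genes.

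Receptor genes also had more sequence in which a peak could be assigned to them, a median of 116 kb per gene, against 54.0 kb for enzymes and 47.3 kb for all protein-coding genes. Counted per length of that sequence, there were 1.10 peaks per Mb at enzymes (2 peaks in 1.81 Mb), 6.67 per Mb at receptors (7 peaks in 1.05 Mb) and 1.36 per Mb over all genes. With a limit of 10 kb, peaks were left at 1 enzyme gene (Lta4h) and 3 receptor genes (Cysltr1, Ltb4r1 and Tbxa2r), or 4.35% and 23.1%, against 3.38% of all genes. With limits of 50 and 250 kb the enzyme count was 2 in both cases and the receptor count 5 and 6, against 6.76% and 8.35% of all genes.

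**Figure D3:**
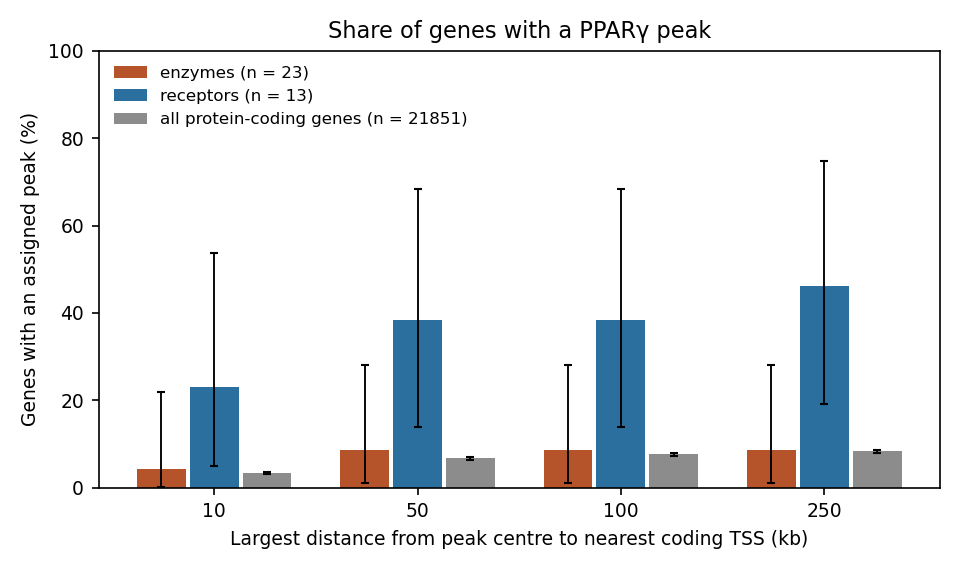
Percentage of enzyme genes (n = 23), receptor genes (n = 13) and all protein-coding genes (n = 21851) with an assigned peak, by the largest distance allowed from peak centre to TSS (kb). Bars are shares and lines exact 95% binomial intervals, which cover counting error only. Enzymes range over 4.35% to 8.70% and receptors over 23.1% to 46.2%, and the intervals of enzymes and receptors overlap at each limit.

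The 9 assigned peaks were uneven in place. Chromosome 14 carries 3.59% of all peaks and 5 of the 36 genes, all of them receptors. It held 5 of the 9 peaks, at Cysltr2, Ltb4r1 and Ptger2, which are 3 of the 5 receptor genes with a peak. The contrast of receptors with enzymes thus rests in part on this chromosome. Relative to the gene to which each was assigned, 6 of the 9 peaks lay past its 3′ end, against 14.5% of all 2124 assigned peaks. Upstream of the gene lay 2, against 38.3%, and inside it 1, against 47.1%. Both peaks of Cysltr2 and both of Ptger2 were among the 6, which are therefore not 6 separate genes. By overlap with any annotated gene, 2 were in promoters, 1 in an exon, 3 in introns and 3 intergenic, where 8.04%, 3.55%, 52.4% and 36.0% of all peaks lay in these classes. No centre of the 9 fell in repeat-masked sequence, against 16.2% of all peaks. The GC content of the 9 peaks ran over 32.4% to 57.2% with a median of 39.9%, against a median of 43.4% over all peaks, and the highest was the Tbxa2r promoter peak. The Lta4h peak held 9 CpG dinucleotides, most of them within its tRNA gene, and each other peak at most 1.

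Motifs were searched in 200 bp windows around the peak centres. DR1 was found in 2 of the 9 peaks, both at cysteinyl leukotriene receptor genes, against 19.8% of all peaks and 3.39% of 5071 windows of the same length 1000 bp to either side of them. At the level of genes, 2 of the 36 held an assigned DR1 peak, against 1.90% of all protein-coding genes. Neither match had fewer than 2 mismatches, whereas 6.42% of all peaks held a match with at most 1, and both lay about 50 bp from the centre. An exact AGGTCA half-site, which DR1 can contain, was present in 4 of the 9, all at receptor genes, against 27.8% of all peaks. AP-1 (TGACTCA) was present in 1 of 9 against 17.9%. On both strands, the sites searched for GATA factors (AGATAA or TGATAA), RUNX factors (TGTGGT), STAT5 (TTCNNNGAA), NFAT (TGGAAA) and ETS factors (CCGGAA) were found in 1, 2, 2, 2 and 0 of the 9 peaks, against 26.4%, 18.6%, 9.89%, 19.3% and 2.64% of all peaks. None of these motifs was found in the 2 enzyme peaks.

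**Figure D4:**
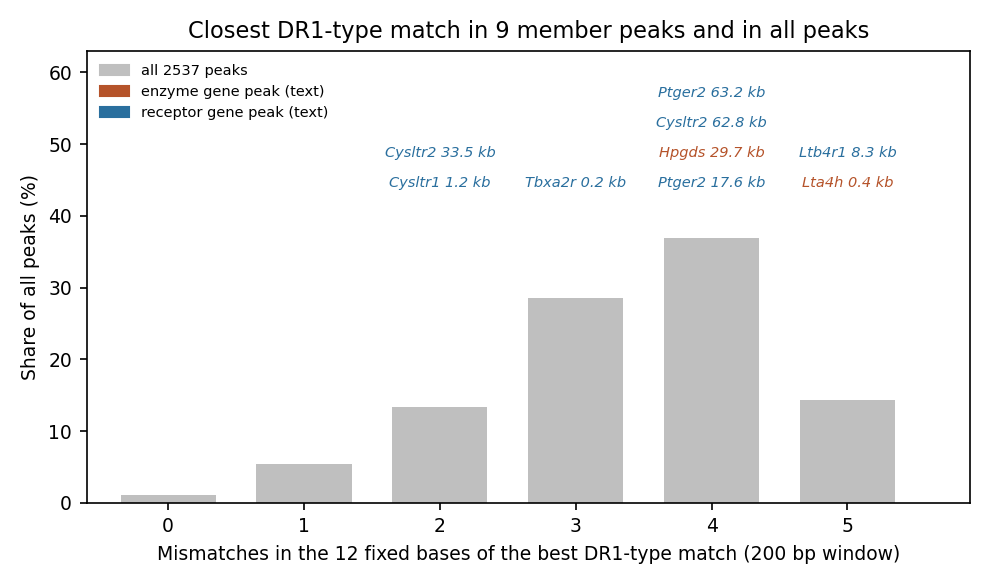
Number of mismatches of the closest DR1-type match within 200 bp around the peak centre (x axis) and the share of all 2537 peaks at each number (grey bars, %; the few peaks with more than 5 are not drawn). Text labels place the 9 peaks of enzyme and receptor genes with their distance to the TSS in kb, and their height carries no value. Only the peaks of Cysltr1 and the nearer one of Cysltr2 reach 2 mismatches, and the peaks of Lta4h and Ltb4r1 have 5.

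The promoters themselves, taken from RefSeq (GRCm38.p6) as 250 bases before to 50 after each start, were available for 29 of the 36 genes. DR1 occurred in none of the 29, against 3.89% of 17492 protein-coding genes with a listed promoter. In 29 genes this absence cannot be set apart from that share. AP-1 occurred in 1 of 29 (Ptgds) against 5.40%. The half-site occurred in 4 of 29 (Gpx4, Pla2g4a, Ptgfr and Tbxa2r) against 16.7%. Of these 4 genes only Tbxa2r had an assigned peak.

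Other genes of the pathway, 63 symbols, held an assigned peak at 7 genes (11.1%, against 7.68% of all genes). Of these 7, Acsl4, Elovl5 and Abhd12 belonged to arachidonic acid supply. The phospholipases had only Pla2g4c, leukotriene conjugation and breakdown only Mgst2, transport only Abcc1, and the lipid receptors and regulators only Gpr132. In that last group Gpr17, Gpr75, Ffar1, Ffar4, Fpr2, Cmklr1, Ptgfrn and Anxa1 had no assigned peak, so the higher share of the main list's receptors was not seen there. No peak was assigned to the further lipoxygenases, the further prostanoid synthases and reductases, or the cytochrome P450 and epoxide hydrolase genes on that list. Each of these groups held only a few genes, so an absence cannot be set apart from the 7.68% of all genes. Of the 7 peaks, the one nearest to a TSS was at Gpr132, which encodes a receptor for oxidised fatty acids. It lay in an intron, 0.940 kb downstream of a coding TSS that is inside the annotated gene and not at its 5′ end. This peak held an AP-1 site, and its centre was in repeat sequence. Abcc1 encodes the exporter of leukotriene C4, and its peak lay 10.7 kb upstream, also with an AP-1 site. Mgst2, which encodes a microsomal glutathione transferase that can form leukotriene C4, had a peak 23.6 kb upstream without DR1 or AP-1. This peak lay in the promoter of another annotated gene. Peaks at the phospholipase gene Pla2g4c (15.2 kb, in an intron of Lig1, AP-1), the lipase gene Abhd12 (25.9 kb) and the fatty acid elongase gene Elovl5 (41.4 kb) completed those within 50 kb. Acsl4, which encodes the acyl-CoA synthetase that prefers arachidonic acid, had an intergenic peak 99.5 kb upstream, just inside the limit, and this was the only one of the 7 with a DR1 match, while 3 of the 7 held AP-1.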

How the data were processed

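PPARγ binding was measured by ChIP-seq in 1 library set against 1 input library. The submitters' processing notes name Bowtie2, HOMER and mm10, and the series text adds that uniquely mapping tags were used. Per the file headers, the authors called peaks with HOMER from 10229438 tags, of which 54617 lay in peaks (21.5 per peak on average), at a false discovery rate of 0.001, with 4-fold enrichment over input and local signal, and the input comparison discarded 682 of 3239 candidates. Versions are not given in the sources used here. The score column of the deposited list is 1 in every row, so peaks could not be ranked and each counted once.

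From there, start sites of protein-coding transcripts came from the basic GENCODE vM21 annotation (GRCm38, the assembly of mm10), and sequence, repeat masking and tRNA genes from NCBI RefSeq of that assembly. Promoters ran from 1000 bp upstream to 100 bp downstream of a start. The gene list and the other pathway genes (63, 1 matched by an older name) were chosen with earlier results of these peaks known, and no test was made. Named are all listed genes with a peak, those with a peak assigned elsewhere, and the nearest, the farthest and 5 preset genes of the rest. Ptgir, Ptgfr and Ptger3 were added after their values were seen. Intervals are exact binomial (Clopper-Pearson). Motif search, peak assignment and assignable length were tested on simulated data. Alternatives covered distance, assignment, annotation, peak subsets and motif settings. Python 3.11.15, numpy 2.4.6, pandas 2.3.3, scipy 1.17.1, pysam 0.24.0 and matplotlib 3.10.9 were used.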

Additional observations from a re-analysis of the deposited data

How the results depend on the processing

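The share of enzyme genes with a peak stayed below that of receptor genes under all 16 alternatives to the assignment. These all draw on the same peak list and are not independent. The 50 kb limit, distance from the peak edge, peaks outside repeats and the comprehensive annotation changed no listed gene, so they add no support. In percentage points, enzymes minus receptors came to −29.8 as reported, −18.7 within 10 kb, and also −18.7 with only the upper or only the lower rows of the file, split at its middle. It was −19.1 when any peak within 100 kb counted, −11.0 by gene body with 5 kb upstream and −15.4 with DR1 peaks only. Counts within 10 kb were 4 genes, 1 enzyme, 3 receptors, 4 peaks and 1 other pathway gene, against 3.38% of all genes. Any peak within 100 kb gave 15 genes, 8 enzymes, 21 peaks and 22 other pathway genes, against 23.5% of all genes. Gene bodies gave 3 genes, 1 enzyme, 2 receptors and 3 peaks, where 6.17% of all protein-coding genes had one. The upper rows gave 4 genes, 1 enzyme, 3 receptors and 5 peaks, and the lower rows 4 genes, 1 enzyme, 3 receptors, 4 peaks and 1 other pathway gene, against 4.33% and 4.19% of all genes; fewer peaks entered each. DR1 peaks alone gave 2 genes, 0 enzymes, 2 receptors, 2 peaks and 1 other pathway gene, against 1.90% of all genes. The nearest TSS of any gene, noncoding included, left 1 enzyme, 4 receptors, 5 peaks and 2 other pathway genes, against 4.84% of all genes. Hpgds and Ptger2 were lost. Noncoding transcripts of coding genes left 1 enzyme, 4 receptors and 7 peaks, against 7.95% of all genes, and Hpgds and Ltb4r1 were lost. Leaving out peaks over tRNA genes left 1 enzyme, Hpgds, and 5 receptors, against 7.66% of all genes. These last 2 alternatives and the comprehensive annotation were chosen after seeing the data. Peaks per Mb within 10 kb were 2.12 at enzymes and 13.3 at receptors.

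DR1 matches came to 0 of 9 peaks in 100 bp windows, against 12.7% of all peaks, and to 0 with at most 1 mismatch, against 6.42%. AP-1 matches came to 2 of 9 in 400 bp windows, against 26.7% of all peaks, and to 6 with 1 mismatch, against 65.5%. Limits: with 1 library, no value here has an error between cultures, nearest-gene assignment does not show which gene a peak acts on, and a weak peak can be missed at this depth. A stricter peak threshold could not be applied, since the scores are equal. No paired analysis was possible because the ChIP group has 1 library.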
